A study of Mus musculus with 8 samples.

Results

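The genes described here drive the cell division cycle, from the commitment to copy the genome to the separation of the chromosomes, and were measured in cultured mouse hepatic stellate cells with or without a working gene for IL15Ra, the receptor subunit that binds interleukin-15. They were chosen by name, as 37 genes of G1 control, DNA synthesis and mitosis together with the inhibitors of the cyclin-dependent kinases. The replicative helicase genes of the MCM family were left out. Of the 37 genes, 32 had at least 1 probe that the platform annotation names, among 16593 genes with such a probe on the array. Cdk4, Mki67, Ccnb1, Aurkb and Smc4 had none, so their expression is not analysed here.

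The cells were primary hepatic stellate cells, the pericytes of the liver sinusoid, at passage 0. IL15Ra-knockout cells (4 arrays) came from knockout mice of that gene, and control cells (4 arrays) from wild-type mice. Both kinds of mice were of the B6/129 strain, were labelled female and 6 weeks old, and no treatment is labelled. Both kinds of culture were kept in medium with 20% fetal bovine serum. RNA of every sample was read on its own Illumina MouseRef-8 v2.0 array, where a probe's value is the mean brightness of its beads. Nothing in the labels tells whether the samples of a genotype were different animals, and the p-values therefore reflect the spread among samples that may be technical repeats.

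A cell leaves G1 when D-type cyclins with their kinases and then cyclin E with Cdk2 phosphorylate the retinoblastoma protein and free E2F factors, which switch on the genes of DNA synthesis. Later, a second set of genes for mitosis is switched on, and its promoters often carry a cell cycle genes homology region (CHR) together with CCAAT boxes. Inhibitors of the Cip/Kip and Ink4 families hold these kinases in check. Stellate cells rest in the healthy liver, and they divide and turn into myofibroblasts after injury and when plated on plastic.

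Several facts of the whole series bear on these values. The number of probes above background, with a detection p under 0.05, was lowest on knockout 1 (7765), knockout 4 (7830) and control 3 (6760), and lay between 9135 and 10516 on the other 5 arrays. The first principal component held 78.2% of the variance and set these 3 arrays apart, so the values of these arrays are pointed out below. Of the defining stellate markers, Lrat, Ngfr, Hand2, Lhx2 and Rgs5 were at background on all 8 arrays, whereas Reln, Des and Dcn were above it on all 8. All 8 measured macrophage markers were above background on all 8 arrays. None of the 4 Il15ra probes was above background on any array (their lowest detection value was 0.178), so the targeted gene does not check the labels. Probes of the Y-linked genes Uty, Kdm5d and Eif2s3y were above background on all 8 arrays although the mice are labelled female.

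Among the 32 cell cycle genes, Plk1 and Ncapg2, a kinase and a chromosome condensation subunit of mitosis, had the largest differences, each more than 5-fold higher in IL15Ra-knockout than in control cells. Neither passed the test at an adjusted p of 0.05 over all 8 arrays, and nor did any other of the 22 genes bright enough to be tested. In the same fit, by limma's moderated test with Benjamini-Hochberg adjustment, 50 of the 9433 kept probes passed, 0.530% of them (0.233% higher and 0.297% lower in the knockout, as 22 and 28 probes, and with median scaling 60 and 48). Without adjustment, 5 of the 22 genes had a p under 0.05, namely Ncapg2, Plk1, Cdkn2a, Pcna and Tpx2, all with a higher mean in the knockout. Of all kept probes, 595 had such a p (6.31%), 387 of them higher and 208 lower in the knockout, so most of these pointed higher too. After normalisation, the 4 knockout values lay above all 4 control values for Plk1, Ncapg2 and Pcna, and no gene had all its knockout values below. Among the kept probes, the groups were apart with the knockout higher for 3.12% and with the knockout lower for 1.91%, or 5.02% in all, and among all probes on the array for 4.12%. Since RNA came from whole cultures, a difference in the share of dividing cells and one in the RNA per dividing cell cannot be told apart. Markers of other cells moved with genotype too. The summed signal of 7 mesothelial markers was 13802 to 20121 on the knockout arrays, against 8875 to 13357 on the control arrays, and that of 7 dendritic cell and class II genes 1418 to 2107 on the knockout arrays, against 14576 to 31561 on the control arrays. Their part in the cell cycle values was not tested.

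Further fits take the 3 arrays with few detected probes into account. With each array's count of detected probes as a covariate, 5 of the 22 genes were called, all higher in the knockout, namely Plk1, Ncapg2, Cdkn2a, Tyms and Rrm2, where 7.10% of the kept probes were called, 4.26% higher and 2.84% lower. The other 5 arrays alone were 2 of the knockout and 3 of the control. On them Plk1 and Ncapg2 were called higher, where 1.79% of the kept probes were called, 0.912% higher and 0.880% lower. The median difference over the 32 genes was 0.05 on the log2 scale, beside 0.003 over all probes on the array, and 20 of the 32 lay above 0. The 10 untested genes, dim on most arrays, lay between -0.09 and 0.20 and draw that median towards 0. Over the 22 tested genes the median was 0.33, beside 0.03 over all kept probes, as a description of genes that a filter on brightness left.

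**Figure D1:**
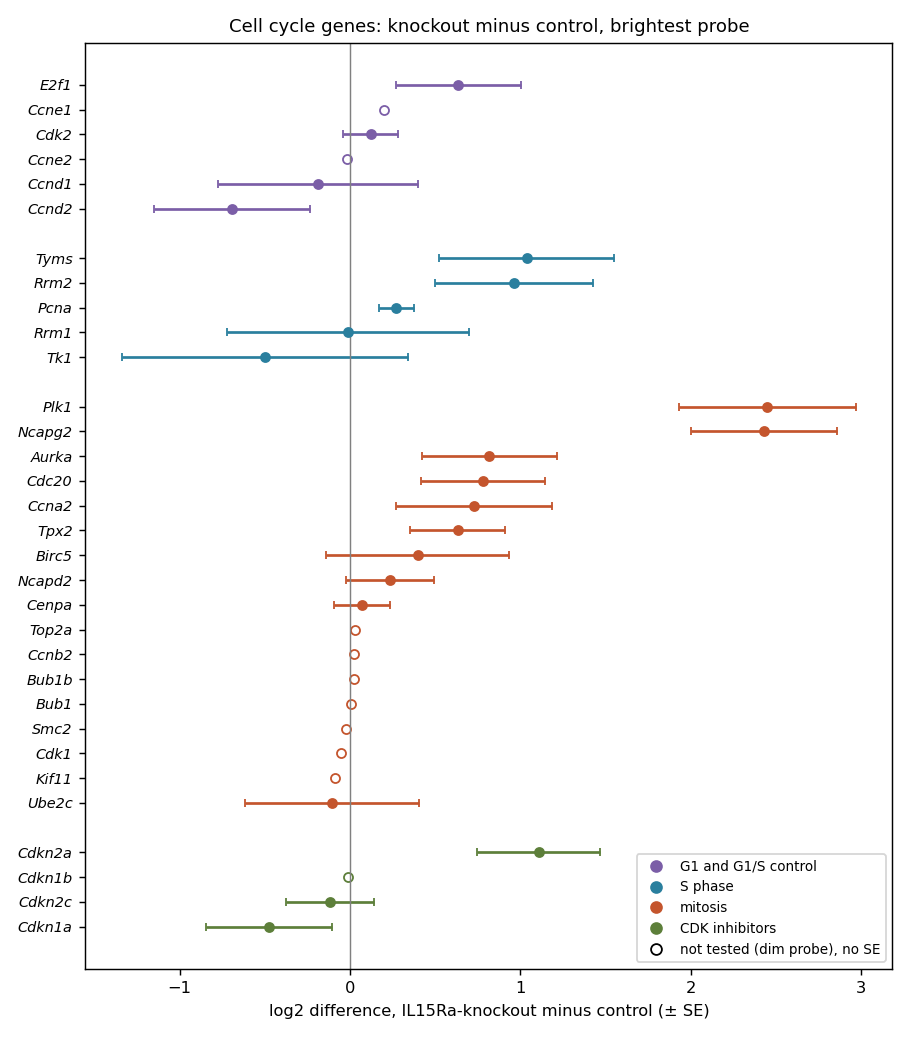
Difference between IL15Ra-knockout and control on the log2 scale for the brightest probe of each of the 32 genes, grouped by role, with bars of ± 1 SE from the fit over all 8 arrays. Open points are genes too dim to be tested. Plk1 at 2.45 and Ncapg2 at 2.43 lie apart from the others, which run from -0.69 for Ccnd2 to 1.11 for Cdkn2a.

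The G1 genes showed no common direction. Of the 6 with a probe, 3 had a higher and 3 a lower mean in the knockout, with a median difference of 0.05, and none of the 4 tested was called in any of these fits. E2f1, the transcription factor on chromosome 2 that switches on DNA synthesis genes, measured 11.38, 10.22, 10.35 and 10.87 on knockout arrays 1 to 4, against 10.19, 10.15, 10.73 and 9.20 on control arrays 1 to 4, in log2 signal. The groups overlapped, because control 3 was above 2 of the knockout arrays. Their means were 10.70 ± 0.53 and 10.07 ± 0.64 (SD, n = 4 each), a difference of 0.64 ± 0.37 (SE) with a limma adjusted p of 0.913.

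Ccnd2, a D-type cyclin gene on chromosome 6, had the largest difference towards lower values among the 32 genes. Its values were 7.24, 7.35, 7.66 and 6.88 on the knockout arrays, against 8.71, 8.0, 6.70 and 8.49 on the control arrays. Controls 1, 2 and 4 stood above every knockout array, and control 3, the array with the fewest detected probes, stood below them all. The difference was -0.69 ± 0.46 (SE, limma adjusted p = 0.913).

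Ccnd1, the other D-type cyclin among the 32 genes, followed the arrays rather than the genotype, and is described because of that, having been picked after its values were seen. Its brightest probe read 9.55, 11.54, 11.14 and 9.83 on the knockout arrays, against 11.32, 10.98, 9.20 and 11.32 on the control arrays. The 3 arrays with the fewest detected probes lay between 9.20 and 9.83, and the other 5 between 10.98 and 11.54. The difference between the genotypes was -0.19 ± 0.59 (SE). Another probe of Ccnd1 ran the opposite way across the same arrays, with higher values on the 3 arrays and a difference of 0.75 (limma adjusted p = 0.913). The remaining Ccnd1 probe ran like the brightest one, at 8.94 to 9.49 on the 3 arrays and 10.63 to 11.13 on the other 5. Its difference was -0.22 (limma adjusted p = 0.941).

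Cdk2, the kinase partner of cyclins E and A, was nearly even at 10.86 ± 0.12 in knockout and 10.74 ± 0.18 in control cells (SD, n = 4 each). Of the cyclin E genes, Ccne1 was above background on 1 array of each group and Ccne2 on none, so their differences of 0.20 and -0.02 were not tested.

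Among the 5 genes of DNA synthesis, Pcna was the one whose groups did not overlap after normalisation. Pcna, the sliding clamp of the replicative polymerases, on chromosome 2, measured 12.51, 12.64, 12.63 and 12.61 on the knockout arrays, against 12.24, 12.31, 12.47 and 12.29 on the control arrays. The lowest knockout value, 12.51, lay just above the highest control value, 12.47, which came from control 3. In the scanner's own signals the groups overlapped, since control 3, at 6602, was above the knockout arrays, at 5230 to 6329. The means were 12.60 ± 0.06 in knockout and 12.33 ± 0.10 in control cells (SD, n = 4 each), a 1.21-fold difference with a limma adjusted p of 0.600, and of 0.0940 with the covariate.

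Tyms and Rrm2 make DNA precursors, and both were called in the fit with the covariate. For Tyms, thymidylate synthase on chromosome 5, the values were 8.75, 7.07, 7.66 and 7.88 on the knockout arrays, against 6.54, 6.67, 8.02 and 5.99 on the control arrays. Control 3 was above 3 of the knockout arrays, while the other 3 controls were below all of them. The difference of 1.04 ± 0.51 (SE) had a limma adjusted p of 0.875, and the covariate's fit gave 0.95 with an adjusted p of 0.0384. The other 4 Tyms probes were at background on all 8 arrays.

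Rrm2, the small subunit of ribonucleotide reductase on chromosome 12, measured 9.33, 7.94, 8.53 and 8.82 on the knockout arrays, against 7.63, 7.60, 8.76 and 6.78 on the control arrays. As for Tyms, control 3 was the one control inside the knockout range. The difference was 0.96 ± 0.46 (SE, limma adjusted p = 0.858), and 0.89 with the covariate (adjusted p = 0.0438). A second Rrm2 probe, above background on all arrays, differed by 1.17 (adjusted p = 0.490), and by 1.12 with the covariate (adjusted p = 0.0273).

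Rrm1 encodes the large subunit of the same enzyme and showed nothing of this kind. Its values were 8.67, 10.28, 9.78 and 8.36 on the knockout arrays, against 10.21, 9.67, 7.16 and 10.08 on the control arrays, a difference of -0.01 ± 0.71 (SE). Every one of the 3 arrays with few detected probes was below the other 5. The brightest probe of Tk1, the thymidine salvage kinase, had the same layout, with 4.65 to 5.27 on those 3 arrays and 7.15 to 7.75 on the other 5. It was above background on 5 arrays and differed by -0.50 ± 0.84 (SE, limma adjusted p = 0.916). A second kept Tk1 probe, above background on 7 arrays, differed by -0.44 (limma adjusted p = 0.913). That probe did not have this layout, and its highest value, 7.11, was on control 3. Rrm1 and Tk1 were picked after their values were seen. Over the 5 genes the median difference was 0.27, with 3 above and 2 below 0.

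**Figure D2:**
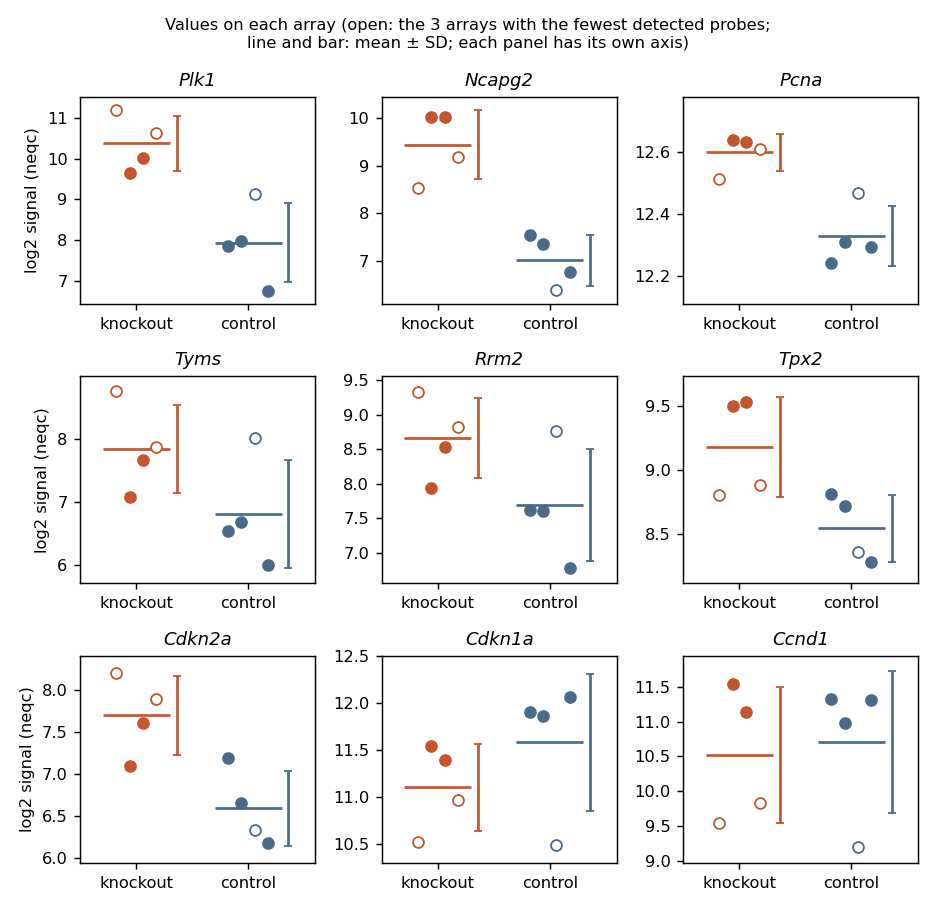
Log2 signal on each array for 9 of the genes, IL15Ra-knockout left and control right, with lines at the mean and bars of ± 1 SD (n = 4), each panel on its own axis. Open points are knockout 1, knockout 4 and control 3. In the panels of Plk1, Ncapg2 and Pcna every knockout point lies above every control point, and in the Ccnd1 panel the open points lie below the filled ones in both groups.

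Of the 21 mitosis genes, 17 had a probe, 10 were tested and 6 were above background on all 8 arrays. The mean was higher in the knockout for 13 of the 17 and lower for 4, with a median difference of 0.07, but 7 of the 17, among them 3 of the 4 lower ones, were too dim to be tested. Over the 10 tested genes, of which Ube2c alone was lower, the median was 0.68, and it was 0.75 when a detection p under 0.01 on every array was asked for. Of the 10 tested, Plk1, Ncapg2 and Tpx2 had an unadjusted p under 0.05, all with the knockout higher.

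Plk1 encodes the polo-like kinase of mitotic entry and spindle assembly and lies on chromosome 7. Its single probe measured 11.21, 9.66, 10.03 and 10.63 on the knockout arrays, against 7.86, 7.98, 9.14 and 6.75 on the control arrays. In the signals as read by the scanner, before any correction, these were 1980, 873, 1107 and 1625 on the knockout arrays, against 387, 372, 602 and 315 on the control arrays. The groups were separate on both scales, and control 3 was the brightest control on both. Knockout cells averaged 10.38 ± 0.68 and control cells 7.93 ± 0.98 (SD, n = 4 each), a difference of 2.45 ± 0.52 (SE) or 5.46-fold. The limma adjusted p was 0.114 over all 8 arrays. It was 0.000350 with the covariate and 0.0274 on the 5 arrays by the same limma test, with differences of 2.36 and 2.31 in these fits. When each array was left out in turn, the difference lay between 2.05 and 2.85, and Plk1 was called without control 3.

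Ncapg2, on chromosome 12, is a subunit of condensin II, which compacts chromosomes as mitosis begins. Its values were 8.54, 10.03, 10.02 and 9.19 on the knockout arrays, against 7.55, 7.35, 6.39 and 6.77 on the control arrays. The scanner's own signals were 291.5, 1073, 1100 and 585 on the knockout arrays, against 333, 278, 191 and 317 on the control arrays. On that uncorrected scale knockout 1 was below controls 1 and 4, so its groups were apart only after background correction and normalisation. Means were 9.44 ± 0.72 in knockout and 7.01 ± 0.53 in control cells (SD, n = 4 each), which differed by 2.43 ± 0.43 (SE) or 5.39-fold. The limma adjusted p of 0.0523 narrowly missed the threshold, and it was 0.000151 with the covariate and 0.00297 on the 5 arrays. Control 3 was not above background, and the gene was called when either control 3 or knockout 1 was left out. Of 2 further Ncapg2 probes, one was at background on all arrays and the other on all but 1, with differences of 0.04 and 0.09, so the result rests on 1 probe. The mean over the 3 probes differed by 0.85.

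The remaining tested genes of mitosis had smaller differences. Tpx2, which targets and activates Aurora A on the spindle, measured 8.81, 9.50, 9.53 and 8.88 on the knockout arrays, against 8.82, 8.72, 8.36 and 8.28 on the control arrays. Knockout 1 lay just under control 1, and otherwise the groups were separate, with a difference of 0.63 ± 0.28 (SE, limma adjusted p = 0.786). Aurka itself, the Aurora A kinase of centrosomes and spindle poles, gave 9.36, 8.69, 9.01 and 9.26 on the knockout arrays, against 8.32, 8.31, 9.16 and 7.27 on the control arrays. Control 3 was again the one control within the knockout range, and the difference was 0.82 ± 0.40 (SE, adjusted p = 0.863).

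Cdc20, the activator of the anaphase-promoting complex, gave 10.39, 9.55, 9.72 and 10.17 on the knockout arrays, against 9.24, 9.23, 9.96 and 8.28 on the control arrays. Here too control 3 stood among the knockout arrays and the other 3 controls stood below all of them, with a difference of 0.78 ± 0.36 (SE, limma adjusted p = 0.835). A second kept Cdc20 probe, above background on 4 arrays, differed by -0.05 (limma adjusted p = 0.984). Its values were lower on the 3 arrays with few detected probes, so the difference of 0.78 rests on the brightest probe. Ccna2, cyclin A of S phase and G2, differed by 0.73 ± 0.46 (SE). Birc5, the survivin of the chromosomal passenger complex, differed by 0.40 ± 0.54, and Ncapd2, a condensin I subunit, by 0.23 ± 0.26. For Cenpa, the histone of the centromere, the difference of 0.07 ± 0.17 turned to -0.01 under cyclic loess scaling. Ube2c, the ubiquitin-conjugating enzyme of the anaphase-promoting complex, was at -0.11 ± 0.51. The limma adjusted p of these 5 genes was at least 0.913.

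Many textbook proliferation genes gave no usable level. Top2a, Cdk1, Ccnb2, Bub1 and Smc2 were at background on all 8 arrays, Cdk1 with each of its 3 probes, and Bub1b and Kif11 were above it on at most 3 arrays. Cdk1, the mitotic kinase, and Ccnb2, its cyclin B partner, thus could not be followed, and their differences of -0.05 and 0.02 say nothing of either genotype.

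The promoters of these genes are shown because most of those of mitosis hold a CHR, which those of the other role groups lack. The CCAAT box is not particular to mitosis, and stood in 60% of the S phase promoters. In RefSeq's 300-base promoter windows of GRCm38.p6, 250 bases before the start of the gene and 50 after, the letters TTTGAA or TTCGAA of the CHR were looked for on both strands, as were the CCAAT box (CCAAT) and an E2F-like core, written TTGGCGC, or else TTGCCGC, or else TTCGCGC, or else TTCCCGC. In the 5 windows below, given 5' to 3' on the gene's strand, capitals mark the matches, on whichever strand they lie. Plk1 (chr7:122159185-122159484, plus strand) and Ncapg2 (chr12:116405186-116405485, plus strand) are the genes with the largest differences. Aurka (chr2:172370521-172370820, minus strand) had a smaller one, and Ccnb2 (chr9:70421505-70421804, minus strand) was at background throughout. Rrm2 (chr12:24708004-24708303, plus strand) stands for the S phase genes.
Plk1: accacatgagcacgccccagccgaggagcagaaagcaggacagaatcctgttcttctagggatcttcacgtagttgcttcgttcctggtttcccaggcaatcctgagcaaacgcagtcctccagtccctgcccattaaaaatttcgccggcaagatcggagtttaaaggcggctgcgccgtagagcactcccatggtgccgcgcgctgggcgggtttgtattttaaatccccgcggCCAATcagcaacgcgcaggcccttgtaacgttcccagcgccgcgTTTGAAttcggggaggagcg
Ncapg2: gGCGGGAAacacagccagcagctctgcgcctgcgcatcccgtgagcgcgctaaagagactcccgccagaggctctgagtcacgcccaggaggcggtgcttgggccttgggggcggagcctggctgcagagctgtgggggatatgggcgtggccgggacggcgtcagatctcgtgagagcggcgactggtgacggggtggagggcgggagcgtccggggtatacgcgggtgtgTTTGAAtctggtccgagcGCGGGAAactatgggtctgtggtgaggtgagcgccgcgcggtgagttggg
Aurka: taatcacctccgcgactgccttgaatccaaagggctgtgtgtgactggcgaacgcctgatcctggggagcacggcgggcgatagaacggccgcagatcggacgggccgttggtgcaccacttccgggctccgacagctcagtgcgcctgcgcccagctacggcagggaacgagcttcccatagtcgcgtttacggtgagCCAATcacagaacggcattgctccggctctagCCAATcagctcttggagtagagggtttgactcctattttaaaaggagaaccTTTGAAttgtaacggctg
Ccnb2: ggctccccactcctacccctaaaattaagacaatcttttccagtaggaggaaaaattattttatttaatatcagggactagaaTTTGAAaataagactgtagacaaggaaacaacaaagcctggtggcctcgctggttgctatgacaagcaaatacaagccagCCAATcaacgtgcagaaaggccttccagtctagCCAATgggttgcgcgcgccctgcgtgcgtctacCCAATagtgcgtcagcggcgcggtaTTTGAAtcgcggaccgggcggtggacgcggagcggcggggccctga
Rrm2: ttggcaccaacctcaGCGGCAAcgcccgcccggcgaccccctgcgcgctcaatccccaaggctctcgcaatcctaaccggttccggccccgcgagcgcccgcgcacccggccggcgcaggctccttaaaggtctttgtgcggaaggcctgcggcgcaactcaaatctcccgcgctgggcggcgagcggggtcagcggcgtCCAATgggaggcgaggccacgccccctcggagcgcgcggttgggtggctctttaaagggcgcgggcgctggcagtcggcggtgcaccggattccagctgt

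Plk1 and Aurka have a CHR just behind the annotated start, from base 31 and base 33, counted from the start as base 1, with CCAAT boxes ahead of it, from base -14 in Plk1 and from bases -51 and -19 in Aurka. Ccnb2 has 2 CHR and 3 CCAAT matches. Ncapg2 has 1 CHR, from base -18, no CCAAT box and 2 E2F-like cores, whereas Rrm2 has 1 E2F-like core, 1 CCAAT box and no CHR. Ccnb2, at background on all arrays, and Plk1 therefore hold the same 2 motifs, and a match is a description of letters and not of a bound site.

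Of the 17 mitosis promoters in the table, 15 held a CHR (88.2%), beside 19.2% of all 32851 promoters, and 14 held both a CHR and a CCAAT box (82.4%, beside 7.52%). None of the 5 S phase, 4 G1 or 7 inhibitor promoters held a CHR in this window. An E2F-like core stood in 10 of the 33 promoters of these genes (30.3%, beside 9.57% of all), among them 2 of the 5 of S phase. The 33 promoters belong to 30 of the 37 genes, and Ccna2, Smc4, Tpx2, Ccnd2, Aurkb, Ccne2 and Ccnd1 had none in the table. Birc5 and Ccnb1 were the mitosis genes without a CHR match.

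**Figure D3:**
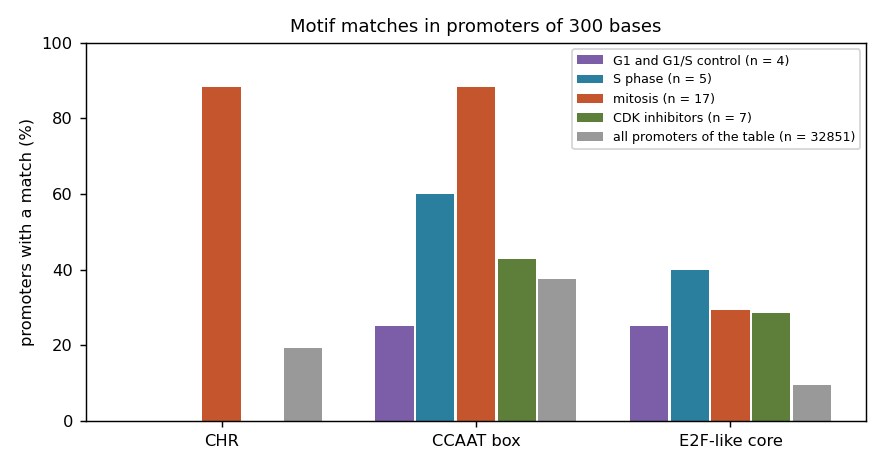
Percentage of promoter windows of 300 bases that hold a CHR, a CCAAT box or an E2F-like core on either strand, by role group and for all 32851 promoters. A CHR stands in 88.2% of the mitosis promoters and in none of the G1, S phase and inhibitor promoters, beside 19.2% of all promoters.

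S phase and mitosis genes were also set side by side on each array, as the mean log2 value after each gene was centred on its own mean over the 8 arrays. The 17 mitosis genes averaged 0.24, 0.26, 0.27 and 0.21 on the knockout arrays, against -0.17, -0.19, -0.17 and -0.45 on the control arrays. The 5 S phase genes averaged 0.15, 0.38, 0.40 and -0.22 on the knockout arrays, against 0.09, -0.07, -0.54 and -0.18 on the control arrays. The mitosis means of the genotypes were thus separate and the S phase means overlapped, although the S phase means were also higher in the knockout as a group, 0.18 ± 0.29 against -0.18 ± 0.27 in control (SD, n = 4 each).

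The S phase mean minus the mitosis mean was -0.07 ± 0.26 in knockout and 0.07 ± 0.30 in control arrays (SD, n = 4 each), a gap of -0.14 that is smaller than the spread within either group. Without Plk1 and Ncapg2, a choice made after their values were seen, the mean of the other 15 mitosis genes was 0.12, 0.14, 0.13 and 0.08 on the knockout arrays, against -0.06, -0.08, -0.07 and -0.25 on the control arrays. The separation was thus still there, but smaller. Among the genes above background on all 8 arrays, 4 of S phase and 6 of mitosis, the S phase means were 0.51, 0.18, 0.34 and 0.11 on the knockout arrays, against -0.15, -0.24, -0.21 and -0.52 on the control arrays. In that set it was the mitosis means that overlapped, at 0.74, 0.14, 0.35 and 0.60 on the knockout arrays, against -0.41, -0.43, 0.22 and -1.20 on the control arrays. The S phase mean minus the mitosis mean was there -0.17 ± 0.24 in knockout and 0.17 ± 0.46 in control arrays (SD, n = 4 each). That gap of -0.35 was larger than the spread within the knockout and smaller than that within the control. That set leaves out Tk1 of S phase, and of mitosis not only dim genes but also Ncapg2 and Birc5, which missed it on control 3 alone.

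**Figure D4:**
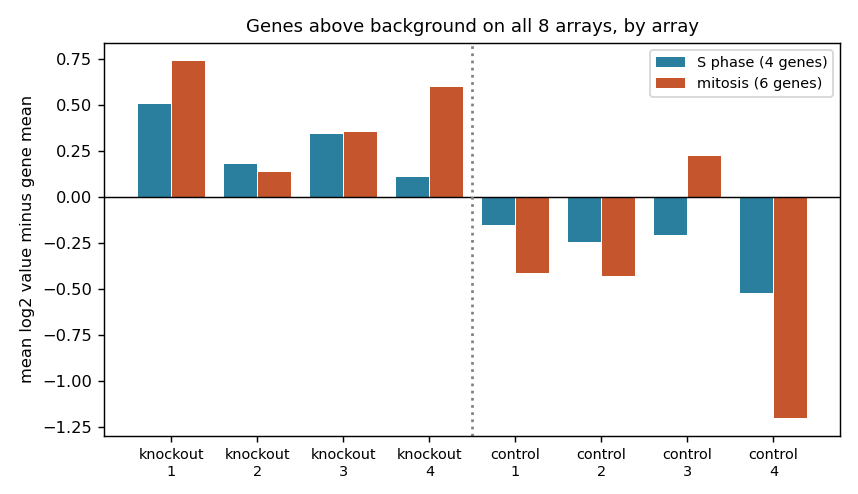
Mean log2 value, centred per gene, of the 4 S phase and the 6 mitosis genes above background on all 8 arrays, by array, IL15Ra-knockout left of control. The bars are positive on all 4 knockout arrays, and the control bars are negative but for the mitosis mean of control 3, at 0.22.

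The inhibitors of the cyclin-dependent kinases did not move together. Cdkn2a, the locus of p16 and Arf on chromosome 4, measured 8.20, 7.09, 7.61 and 7.89 on the knockout arrays, against 7.18, 6.65, 6.34 and 6.18 on the control arrays. The groups overlapped only through knockout 2, which lay under control 1. Means were 7.70 ± 0.47 in knockout and 6.59 ± 0.44 in control cells (SD, n = 4 each), a difference of 1.11 ± 0.36 (SE) or 2.15-fold, with a limma adjusted p of 0.424. Cdkn2a was called with the covariate (1.09, adjusted p = 0.0445) but not on the 5 arrays, where the difference was 0.67 (adjusted p = 0.483). A second Cdkn2a probe was above background on 1 array, and which transcript of the locus a probe reads was not examined.

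Cdkn1a, the p53-induced inhibitor p21 on chromosome 17, had a lower mean in the knockout. Its brightest probe gave 10.52, 11.54, 11.39 and 10.97 on the knockout arrays, against 11.90, 11.86, 10.49 and 12.07 on the control arrays. Controls 1, 2 and 4 stood above all knockout arrays, and control 3 below them all. The difference was -0.48 ± 0.37 (SE, limma adjusted p = 0.913), and -0.41 with the covariate (adjusted p = 0.121). A second kept probe differed by -0.98 (adjusted p = 0.913).

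Cdkn2c, the Ink4 inhibitor p18 on chromosome 4, was level, with 6.28, 6.68, 6.46 and 6.16 on the knockout arrays, against 6.48, 6.65, 6.29 and 6.63 on the control arrays. Its groups overlapped and differed by -0.12 ± 0.26 (SE, limma adjusted p = 0.936). Cdkn1b, p27, on chromosome 6, read 4.75, 4.96, 5.01 and 4.90 on the knockout arrays, against 5.01, 4.92, 4.81 and 4.91 on the control arrays. All of its 3 probes were at background on every array, so no difference can be read for it. The median over the 4 inhibitors was -0.06, with 1 above and 3 below 0.

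Many of these genes were laid out by array, some of them by genotype as well. Of the 22 tested genes, 8 were lower and 7 higher on knockout 1, knockout 4 and control 3 than on all of the other 5 arrays, where 30.2% of the kept probes were lower and 36.1% higher, or 66.4% in all. These shares are close to those of the genes, so the layout is that of the arrays as a whole. The lower ones were Ccnd1, Ccnd2, Rrm1, Tk1, Birc5, Ube2c, Cdkn1a and Cdkn2c, and the higher ones Cdk2, E2f1, Tyms, Rrm2, Ccna2, Aurka and Cdc20. Both sets hold genes of G1, of S phase and of mitosis, so a role does not tell on which side a gene lies. Plk1, Ncapg2, Pcna, Tpx2, Cenpa, Ncapd2 and Cdkn2a were in neither set.

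**Figure D5:**
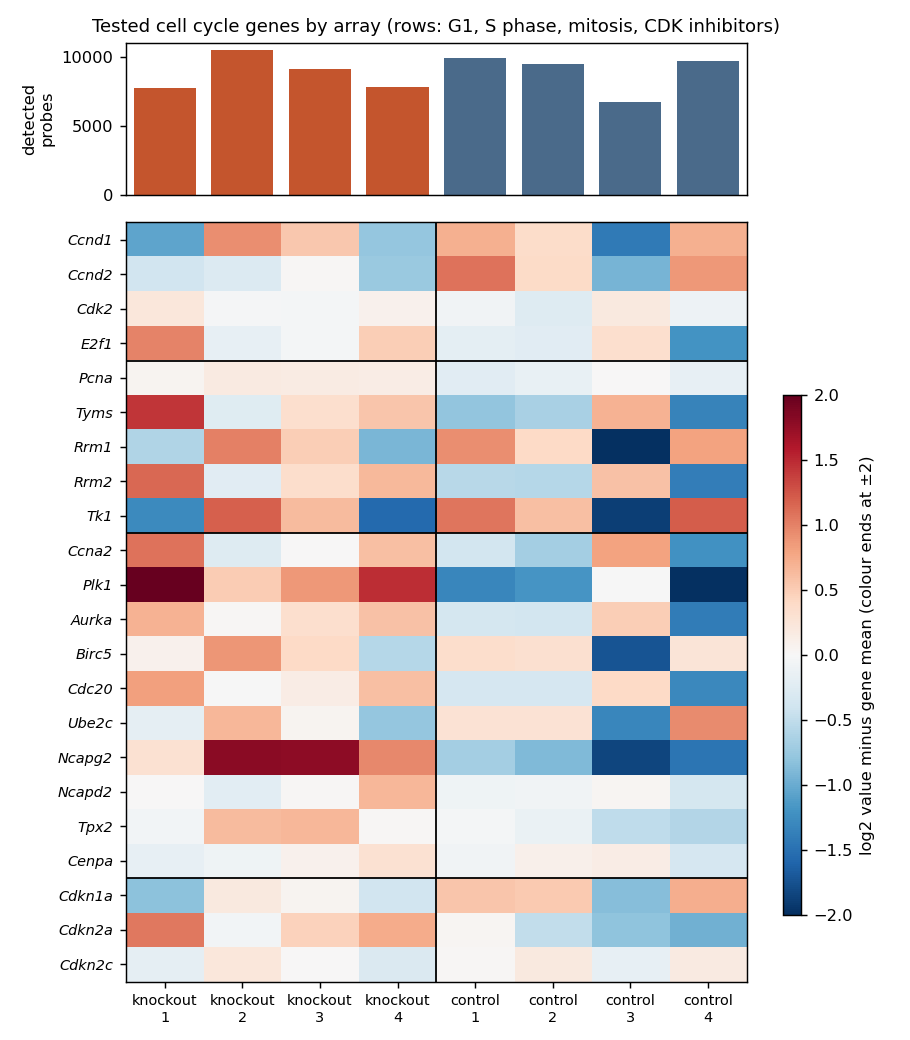
Log2 value minus the gene's mean over the 8 arrays for the 22 tested genes (rows, by role) on each array (columns, IL15Ra-knockout left of control), with a bar for each array's detected probes above. Control 3 has the fewest detected probes, 6760, and its column runs like those of knockout 1 and knockout 4 for Ccnd1, Rrm1, Tk1, Tyms and Cdc20, while the rows of Plk1 and Ncapg2 split by genotype.

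A wider set of 103 cell cycle genes, of which 92 had a probe and 69 were bright enough to be tested, was read in the same way. None was called over all 8 arrays, while with the covariate 11 were called higher and 1, Rb1, lower, in a fit that called 4.26% of all kept probes higher and 2.84% lower. Of 46 further mitosis genes with a probe, 40 had a higher mean in the knockout and 6 a lower one, with a median difference of 0.39, beside 0.003 over all probes on the array, and 10 were at background throughout. Their smallest p-values belonged to Cdca3, with a difference of 0.95 ± 0.27 (SE, limma adjusted p = 0.293), the mitotic kinases Pbk (0.98 ± 0.28, adjusted p = 0.308) and Melk (1.10 ± 0.34, adjusted p = 0.383), and the spindle protein Nusap1 (1.01 ± 0.36, adjusted p = 0.516). Cdca3, a trigger of mitotic entry, gave 10.37, 10.43, 10.60 and 10.45 on the knockout arrays, against 9.73, 9.62, 9.93 and 8.75 on the control arrays, and its groups did not overlap. The knockout values lay above all control values for 7 of these 46 genes, and below for none, beside 4.12% of all probes on the array in either direction. These were Ttk, Prc1, Cenph, Melk, Cdca3, Foxm1 and Pbk, all of them among the 32 of these genes that were kept. Among all kept probes the shares were 3.12% above and 1.91% below.

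Of 27 further S phase genes with a probe, 21 had a higher and 6 a lower mean, with a median of 0.21. Uhrf1, which carries DNA methylation through replication, gave 11.70, 11.58, 11.65 and 11.42 on the knockout arrays, against 10.83, 10.86, 11.32 and 10.16 on the control arrays. Its groups did not overlap, and it differed by 0.79 ± 0.23 (SE, limma adjusted p = 0.343). Rfc4, a clamp loader subunit, differed by 0.84, the polymerase gene Pole by 0.85 and the dUTPase gene Dut by 0.53. In the promoter windows of these further genes, 63.3% of those of mitosis held a CHR and 61.3% of those of S phase an E2F-like core. The other way round, 16.1% of those of S phase held a CHR, beside 19.2% of all promoters. An E2F-like core stood in 24.5% of those of mitosis, beside 9.57% of all.

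The other G1 genes were even, with 8 of 16 above and 8 below 0 and a median of 0.03. Rb1, the retinoblastoma gene, was lower on every knockout array, with 10.87, 10.69, 10.83 and 10.79 on the knockout arrays, against 11.22, 11.15, 11.77 and 11.05 on the control arrays. It differed by -0.50 ± 0.18 (SE, limma adjusted p = 0.564), and by -0.53 with the covariate (adjusted p = 0.0245). E2f6, E2f2 and Cdc25a were next by p, with differences of 0.47, 0.74 and 0.36 and adjusted p-values of at least 0.853.

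Of the 3 inhibitors outside the list, Cdkn1c, the imprinted Cip/Kip gene for p57, had the clearest difference. It gave 10.57, 10.01, 9.89 and 10.37 on the knockout arrays, against 8.50, 8.80, 9.63 and 8.92 on the control arrays. The groups did not overlap, and differed by 1.25 ± 0.29 (SE, limma adjusted p = 0.153). Cdkn1c was called with the covariate (adjusted p = 0.00111) and on the 5 arrays (adjusted p = 0.0370). Cdkn2b differed by 0.58 and Cdkn2d by -0.30 (limma adjusted p = 0.913 for Cdkn2d). The groups of Cdkn2d did not overlap either, with the knockout lower. Of 13 p53 targets other than Cdkn1a, 10 had a lower and 3 a higher mean, with a median of -0.29 over all arrays and -0.12 on the 5, and none was called. Those with the smallest p were Btg2 (-0.52), Ei24 (-0.42), Bbc3 (-0.29) and Tnfrsf10b (0.27), each with a limma adjusted p of 0.913.

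Of the other marker lists of cell types that such a culture can hold, that of cholangiocytes was also higher on every knockout array, through Krt7 alone, since its other measured genes were at background, and the sums of the rest overlapped between the genotypes. Stellate markers summed to 12816 to 17196 on the knockout arrays, against 17063 to 20151 on the control arrays, a sum made up mostly of Dcn. All 9 stellate markers with a probe had a lower mean in the knockout, 5 of them at background on every array, and Reln was called lower, with 9.42 ± 0.34 in knockout and 11.03 ± 0.35 in control cells (SD, n = 4 each, limma adjusted p = 0.0289) and no overlap. Kupffer cell markers summed to 5269 to 9002 on the knockout arrays, against 8931 to 11167 on the control arrays, with Cd5l at background. Macrophage markers summed to 35937 to 48169 on the knockout arrays and 35274 to 49186 on the control arrays, and myofibroblast markers to 32032 to 37056 on the knockout arrays and 32447 to 36690 on the control arrays. Those of sinusoidal endothelium summed to 572 to 1062 on the knockout arrays, against 753 to 1523 on the control arrays, with Kdr and Cdh5 at background, and those of cholangiocytes to 373 to 454 on the knockout arrays, against 256 to 354 on the control arrays. Hepatocyte markers summed to 338 to 780 on the knockout arrays and 288 to 521 on the control arrays, and T, NK and B cell markers to 305.5 to 466 on the knockout arrays and 322 to 516 on the control arrays. Of the T, NK and B cell markers, 8 of 10 were at background on all arrays, as were Alb, Apoa1, Cyp2e1 and Fgb among the hepatocyte markers. In the mesothelial list Krt19 and in the class II list Flt3 were at background on all arrays. The part of these lists in the cell cycle values was not tested either.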

How the data were processed

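RNA from 8 samples was measured on 8 single-colour Illumina arrays. Per the file headers, the authors deposited the brightness of each probe, a linear intensity averaged over its beads and not normalised, and a detection p-value that ranks it among the array's negative-control beads. GenomeStudio (version 3) is named in the submitters' processing notes. The authors' quantile normalised intensity values, deposited as another table (per the labels' design text), served as an alternative.

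Signals were background corrected, given an offset of 16, quantile normalised and turned into log2 values by limma's neqc (version 3.58.1, under R 4.3.3). The offset draws differences of dim genes towards 0. To be kept, a probe needed a detection p-value below 0.05 on 4 or more of the 8 arrays (9433 of 25697). The genotypes were compared by lmFit and trended eBayes, without covariates, with Benjamini-Hochberg adjustment over the kept probes and a threshold of 0.05. On simulated data the test called 20% of the probes given a log2 difference of 1 and 64% of those given 2. It called 80% of those given 3 and 98% of those given 4. The simulated noise was independent for each probe and array, so the layout by array seen in these data was not part of it. Groups came from the titles and genotype labels. A gene is given by its brightest probe over all arrays, and values of different probes were not compared. Of the probes, 23978 had 1 gene symbol and 1719 are unnamed here. Chip positions were not used here, and no chip was tested as a batch. The number of arrays limits the precision.

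The genes and lists were chosen with earlier results of these data known. By rule, values on every array are given for the 10 genes with the smallest p, the 4 inhibitors and the gene with the largest difference in each role group, and up to 4 genes with the smallest p are named of each wider list. Replicate numbers recur in both groups, but same-numbered arrays did not deviate together (correlations of their deviations from the group means, across genes, of -0.66, 0.60, -0.75 and -0.82), so no block was used. The alternatives changed the background correction, offset, scaling, filter, spread model, array weights, replicate block, the count of detected probes as covariate, the probes per gene and the arrays included. Promoter sequences are RefSeq's (GRCm38.p6).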

Additional observations from a re-analysis of the deposited data

Results flagged for a closer look

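Of 72 groups of 4 values examined, 5 held 1 array far from the other 3 by Dixon's criterion, which chance gives in about 1 of 20 groups. Control 3 accounted for 3 of them, with 9.20 for Ccnd1 (other controls 10.98 to 11.32), 5.90 for Birc5 (7.90 to 7.98) and 10.49 for Cdkn1a (11.86 to 12.07), all in log2 signal. Control 3 was also the array with the fewest detected probes. Knockout 4 stood at 5.43 for Cdk1, against 5.04 to 5.06 on the other knockout arrays, a probe at background on every array. The mean of the mitosis genes was -0.45 on control 4, against -0.19 to -0.17 on the other controls.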

How the results depend on the processing

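Over all 8 arrays 0 of the 22 tested genes were called, by limma (5 had an unadjusted p under 0.05), and likewise without background correction, with an offset of 50, with the authors' normalised values, with either other filter and with either other spread model. The number called higher was 1 with median scaling and with cyclic loess (Plk1 in both), 5 with detected probes as covariate, 2 without knockout 1, knockout 4 and control 3, 10 with array weights, and 0 to 2 when each array was left out in turn (Ncapg2 without knockout 1, Ncapg2 and Plk1 without control 3). The number called lower was 2 with array weights and 0 elsewhere. The array weights gave knockout 3 a weight of 36.8 and control 3 one of 0.108, their estimation stopped before convergence, and 38.5% of all kept probes were then called. Of the wider genes, 1 was called higher with median scaling, 11 with the covariate, 1 without the 3 arrays, 35 with array weights and 0 to 1 with an array left out, and 4 were called lower with array weights and 1 with the covariate. All kept probes had 50 calls, against 108 with median scaling, 95 with cyclic loess, 670 with the covariate, 169 without the 3 arrays, 3632 with array weights, and 22 to 123 with an array left out (123 without control 3). Median scaling moved the median of all kept probes to -0.10, against 0.03 with quantile normalisation, and called 60 higher and 48 lower, against 22 and 28.

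A filter at a detection p of 0.01 on every array kept 13 of the genes. The median difference was then 0.96 for S phase, against 0.27, with Rrm1 and Tk1 left out. It was 0.75 for mitosis, against 0.07. For the inhibitors it was -0.48, against -0.06, but this is the value of Cdkn1a alone. Cdkn2a, with a higher mean in the knockout, was left out, as were Cdkn1b and Cdkn2c. With an array left out it was 0.02 to 0.10 for G1, 0.26 to 0.32 for S phase, 0.056 to 0.16 for mitosis and -0.12 to -0.02 for the inhibitors. Of 475 alternative values for single genes, 431 kept direction and side of the threshold, 24 passed it newly and 20 changed sign. Of the 24, 12 came from the fit with array weights. No value could lose the threshold, since no gene had passed it in the main fit. Sign changes concerned Ccnd1 (0.14 without the 3 arrays, 0.11 over its probes, -0.69 to 0.13 with an array left out), Rrm1 (0.13 with the covariate, 0.039 without the 3 arrays, -0.72 to 0.30 with an array left out), Cdk2 (-0.016 over its probes), Cenpa (-0.010 with cyclic loess, -0.026 to 0.14), Birc5 (-0.11 to 0.65) and Ube2c (-0.56 to 0.19). The cause was not tested. With the replicate number as a block, 0 of the 22 genes and 3 of all kept probes were called, and the numbers do not pair the arrays.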
